A study of Hordeum vulgare with 22 samples.

Results

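Genes of the TCP family of plant transcription factors were followed through young barley (Hordeum vulgare) inflorescences: HORVU4Hr1G007040, known as INT-C, HORVU5Hr1G000490, the other gene annotated as TEOSINTE BRANCHED 1, and the TCP family members HORVU4Hr1G019380 and HORVU6Hr1G093960. They are 4 of the 24318 genes in the deposited table and 4 of the 21 whose annotation names a TCP protein. The 4 genes were selected on their counts in these libraries, over both lines and all 3 stages, so their levels and differences are given as descriptions and no test is attached to them. Tests are given for the other 17 TCP genes, of which 16 had enough counts.

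TCP proteins bind DNA through their own TCP domain, a non-canonical basic helix-loop-helix fold. That domain is given for 18 of the 21 genes. It is not given for HORVU3Hr1G072670, HORVU0Hr1G006890 and HORVU6Hr1G093970, which are listed by annotation wording alone. The family is named after TEOSINTE BRANCHED 1 of maize, CYCLOIDEA of snapdragon and the PCF proteins of rice. Members of the CYCLOIDEA and TEOSINTE BRANCHED 1 branch repress the outgrowth of side shoots and shape flowers, members related to CINCINNATA of snapdragon restrain cell division at the edges of leaves and petals, and PCF-type members bind promoters of cell cycle genes. In maize, TEOSINTE BRANCHED 1 keeps axillary buds from growing out. In barley, INT-C is its counterpart, known for a role in tillering and in the size of the lateral spikelets.

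RNA was sequenced from Bowman, a wild-type barley cultivar, and from a line with the mnd1.a allele in the Bowman background. The many-noded dwarf gene MND1 encodes an acyl-CoA N-acyltransferase. Plants grew in long days, and each piece of tissue held the inflorescence with its base and the small leaves under it, harvested at 3 Waddington stages (W2.0, then W3.5, then W5.0), which run from double ridges through stamen primordia to later floret development. In order of stage, Bowman was represented by 3, 4 and 4 libraries and mnd1.a by 3, 3 and 4. A Mesa shoot apex sample was not analysed here. Separate plants are not stated for the libraries of a group, and the p-values therefore reflect sample-to-sample spread alone, possibly technical in origin. In such dissected tissue, fewer cells of a type and less RNA per cell cannot be told apart.

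Total estimated counts per library ranged from 11436651 to 21596190. Levels are CPM (counts scaled by TMM to a common library size), and 3 counts, the limit that a count of 0 allows, corresponded to at most 0.253 CPM in 1 library. The MND1 transcript, HORVU7Hr1G113480, was lower in every mnd1.a library than in every Bowman library of its stage, at 5.58 ± 1.00 against 14.7 ± 5.55 CPM at W2.0 (SD, n = 3 and 3), 4.05 ± 0.541 against 21.2 ± 7.55 CPM at W3.5 (SD, n = 3 and 4) and 5.08 ± 1.79 against 12.7 ± 4.60 CPM at W5.0 (SD, n = 4 and 4). The edgeR adjusted p for these stages was 0.115, 0.00141 and 0.00653 in turn. Library codes in the sample titles begin with 1328 in both lines at W2.0 and with 1327 in both at W3.5. At W5.0 they begin with 1328 in mnd1.a and with 1327 in Bowman, so a difference that goes with the code and one that goes with the line cannot be told apart at that stage. Bowman W3.5 replicates 2 and 4, which earlier results of these data set nearest to W5.0, were left out together in an alternative fit.

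INT-C (HORVU4Hr1G007040, chromosome 4H, 17599034 to 17600737 in the coordinates of the deposited table) had its highest group mean at W5.0 in both lines. In Bowman it was at 5.13, 4.36 and 3.99 CPM at W2.0, at 4.03, 5.81, 3.45 and 8.85 CPM at W3.5, and at 8.96, 9.12, 6.93 and 14 CPM at W5.0. In mnd1.a it was at 7.70, 6.94 and 4.99 CPM at W2.0, at 3.48, 1.51 and 2.99 CPM at W3.5, and at 9.89, 7.87, 8.17 and 7.47 CPM at W5.0. Within each line the W5.0 libraries were mostly the high ones. Bowman W3.5 replicate 4 reached into the W5.0 range of Bowman, and mnd1.a W2.0 replicate 1 into that of mnd1.a. The low point was mnd1.a at W3.5, where its highest library, at 3.48 CPM, lay just over the lowest Bowman library, at 3.45 CPM. The ranges of the lines therefore overlapped at each of the 3 stages.

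As group means, INT-C ran from 9.74 ± 2.98 CPM in Bowman W5.0 (SD, n = 4) through 8.35 ± 1.07 in mnd1.a W5.0 (n = 4), 6.54 ± 1.40 in mnd1.a W2.0 (n = 3), 5.53 ± 2.43 in Bowman W3.5 (n = 4) and 4.49 ± 0.580 in Bowman W2.0 (n = 3) to 2.66 ± 1.03 in mnd1.a W3.5 (n = 3). Neighbours in that order overlapped except the last pair, where every mnd1.a W3.5 library lay under every Bowman W2.0 library. The log2 fold change of mnd1.a over Bowman was 0.54 ± 0.32 (SE) at W2.0, then -1.02 ± 0.32 (W3.5) and -0.22 ± 0.27 (W5.0). The W3.5 value was -0.47 without Bowman replicates 2 and 4, which held the higher Bowman levels of 5.81 and 8.85 CPM. From W3.5 to W5.0 the log2 change was 0.84 in Bowman and 1.64 in mnd1.a, and from W2.0 to W3.5 it was 0.28 in Bowman and -1.28 in mnd1.a.

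The second TEOSINTE BRANCHED 1 gene, HORVU5Hr1G000490 (5H, 2020800 to 2022189), was rare in each group and nearly missing from the later Bowman libraries. In Bowman it was at 0.293, 0.545 and 0.866 CPM at W2.0, at 0.0639, 0, 0.0431 and 0 CPM at W3.5, and at 0.0443, 0, 0 and 0 CPM at W5.0. In mnd1.a it was at 0.580, 0.780 and 0.304 CPM at W2.0, at 0.356, 0.318 and 0.0610 CPM at W3.5, and at 0.989, 0.772, 1.82 and 1.07 CPM at W5.0. All 4 mnd1.a libraries of W5.0 lay above all 4 Bowman libraries of that stage, while at W2.0 and W3.5 the ranges overlapped.

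These levels rest on few counts. Summed over libraries, HORVU5Hr1G000490 had 22 counts in mnd1.a and 25 in Bowman at W2.0, then 10 and 2 (W3.5) and 59 and 1 (W5.0). Scaled for depth, the ratio of mnd1.a to Bowman was 0.922 at W2.0 (95% exact interval 0.496 to 1.70), 7.30 at W3.5 (1.55 to 68.5) and 83.7 at W5.0 (14.5 to 3360). The intervals describe counting error only and are no test between the lines, and the gene passed the low-count filter through libraries of W2.0 and of mnd1.a W5.0. Its fitted log2 fold changes were -0.06 ± 0.60, 2.63 ± 0.88 and 5.73 ± 0.77 (SE) at the 3 stages. The last was 7.09 without Bowman W5.0 replicate 1, the library that held the single Bowman count. Group means ran from 1.16 ± 0.454 CPM in mnd1.a W5.0 (SD, n = 4) through 0.568 ± 0.287 in Bowman W2.0 and 0.555 ± 0.239 in mnd1.a W2.0 (n = 3 each) to 0.245 ± 0.160 in mnd1.a W3.5 (n = 3). Bowman W3.5 and W5.0 stood last, at 0.0267 ± 0.0320 and 0.0111 ± 0.0222 CPM (SD, n = 4 each), and each neighbouring pair in this order overlapped.

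HORVU4Hr1G019380 (4H, 92763298 to 92766044), a TCP family member with no closer name in the table, was high at W2.0 in both lines and parted afterwards. In Bowman it was at 39.4, 40.5 and 30 CPM at W2.0, at 23.9, 20.1, 23.2 and 15.6 CPM at W3.5, and at 18.6, 15.9, 17.1 and 16.4 CPM at W5.0. In mnd1.a it was at 40.1, 36.3 and 30.1 CPM at W2.0, at 25.0, 29.1 and 24.9 CPM at W3.5, and at 26.6, 33.6, 34.4 and 39.3 CPM at W5.0. The lines overlapped at W2.0, while at W3.5 and at W5.0 each mnd1.a library lay above each Bowman library, at W3.5 by a margin of 24.9 against 23.9 CPM. The log2 fold change of mnd1.a over Bowman was -0.05 ± 0.16 (SE) at W2.0, then 0.34 ± 0.15 (W3.5) and 0.98 ± 0.14 (W5.0).

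By group mean, HORVU4Hr1G019380 stood at 36.6 ± 5.75 CPM in Bowman W2.0, 35.5 ± 5.05 in mnd1.a W2.0 and 33.5 ± 5.23 in mnd1.a W5.0 (SD, n = 3, 3 and 4), and these neighbours differed by less than their spread. It stood at 26.3 ± 2.41 CPM in mnd1.a W3.5 (n = 3), which overlapped mnd1.a W5.0 by its highest library only, and at 20.7 ± 3.79 in Bowman W3.5 and 17 ± 1.18 in Bowman W5.0 (n = 4 each), which overlapped each other. The mnd1.a level at W5.0 was thus within the spread of the W2.0 level of the same line, and both groups carry codes that begin with 1328. In Bowman the step from W2.0 to W3.5 was -0.82 on the log2 scale and that from W3.5 to W5.0 was -0.29, against -0.43 and 0.35 in mnd1.a.

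HORVU6Hr1G093960 (6H, 580313306 to 580336891) was likewise higher in mnd1.a at W5.0, over a narrower range. In Bowman it was at 18.6, 20.7 and 24.3 CPM at W2.0, at 12.4, 13.2, 16.4 and 12.3 CPM at W3.5, and at 13.0, 12.8, 13.6 and 15.3 CPM at W5.0. In mnd1.a it was at 23.2, 19.5 and 19.4 CPM at W2.0, at 15.9, 15.8 and 18.6 CPM at W3.5, and at 19.6, 21.8, 23.1 and 24.3 CPM at W5.0. The lines overlapped at W2.0 and W3.5, and at W5.0 all mnd1.a libraries were above all Bowman libraries. Its log2 fold change was -0.04 ± 0.13, 0.30 ± 0.12 and 0.70 ± 0.11 at the 3 stages (SE).

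Group means of HORVU6Hr1G093960 ran from 22.2 ± 2.00 CPM in mnd1.a W5.0 through 21.2 ± 2.88 in Bowman W2.0 and 20.7 ± 2.16 in mnd1.a W2.0, which overlapped, to 16.8 ± 1.60 in mnd1.a W3.5, and then to 13.7 ± 1.14 in Bowman W5.0 and 13.6 ± 1.93 in Bowman W3.5, which overlapped each other (SD, n = 4, 3, 3, 3, 4 and 4). Another gene of the TCP list, HORVU6Hr1G093970 (6H, 580313903 to 580314343), lies inside its span. Strand use in counting was not given in the sources used here, so reads of these overlapping genes may have been divided between them and the separate values of both are uncertain.

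**Figure D1:**
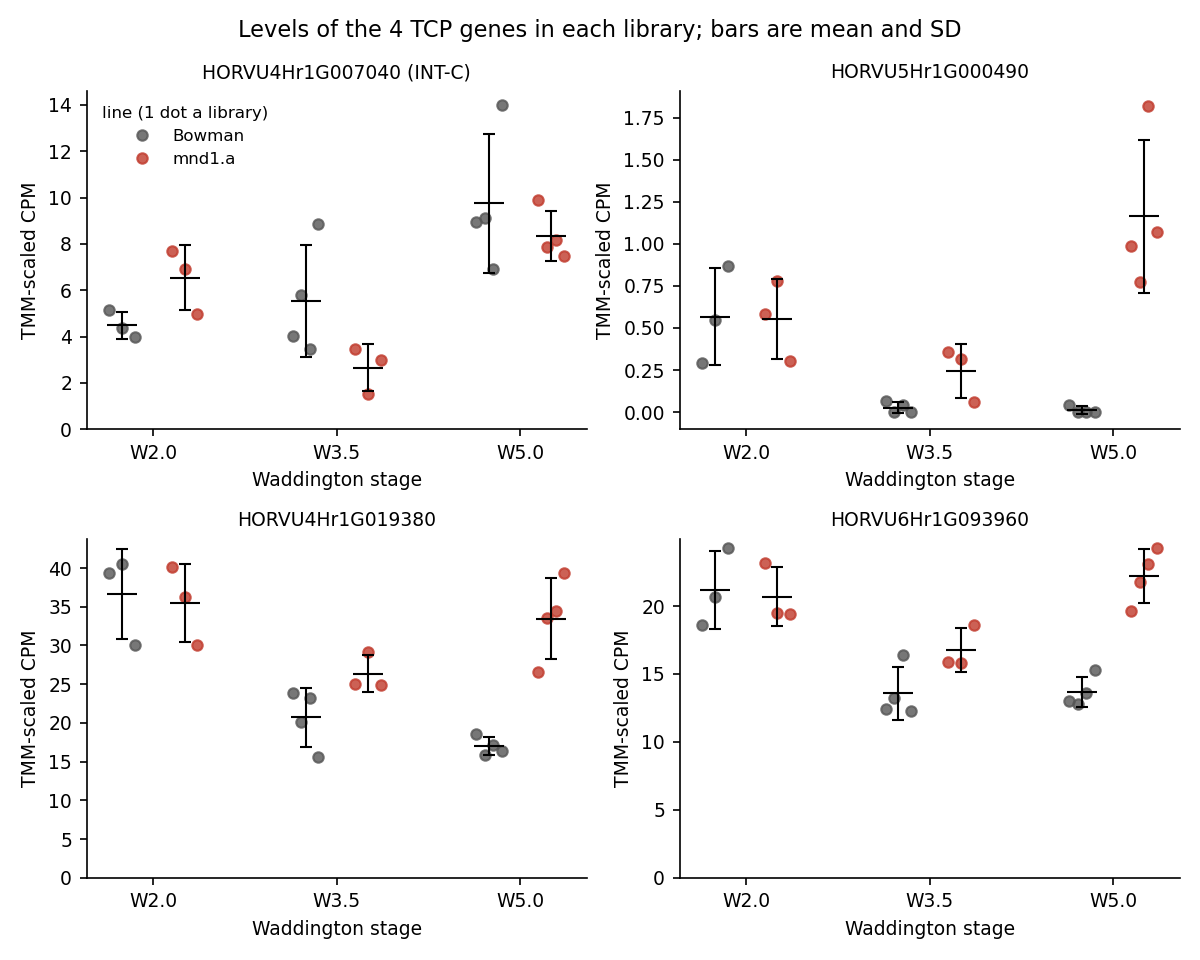
TMM-scaled CPM of the 4 TCP genes (y axes, linear) by Waddington stage (x axes), with 1 dot for each library of Bowman (grey) or mnd1.a (red) and bars for mean and SD. At W5.0 the mnd1.a libraries lie above all Bowman libraries for HORVU5Hr1G000490 (0.772 CPM and more against 0.0443 and less), HORVU4Hr1G019380 and HORVU6Hr1G093960, and among them for INT-C.

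Set side by side, the lines did not overlap for 0 of the 4 genes at W2.0 (18.4% of all 21132 tested genes did not overlap in either direction), for 1 of 4 at W3.5 (12.9%), and, in the higher direction, for 3 of 4 at W5.0 (17.8%). These counts come from the contrasts on which the genes were selected, so nothing is read from them. The 3 line comparisons and the stage steps share libraries.

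The rest of the TCP list, which was drawn by annotation wording, can be tested. The question was whether other TCP genes differed between the lines, and at W5.0 most did: 12 of the 16 tested were higher in mnd1.a, 0 were lower, and 16 of 16 had a positive log2 fold change, with a median of 0.88 beside -0.006 over all genes (edgeR quasi-likelihood, Benjamini-Hochberg adjusted p under 0.05, where 15.0% of all genes were called higher and 15.2% lower). Libraries of the lines did not overlap for 12 of the 16, all higher in mnd1.a (17.8% of all genes did not overlap in that direction). The count was 10 to 12 when each library was left out in turn. HORVU5Hr1G061270, which holds the TCP domain but lies outside the word list, went the other way at W5.0. Its log2 fold change was -0.75, and it is described further below. The library code and the line cannot be told apart in this comparison, as for the 4 genes above.

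Of 6 genes annotated as TCP4 or TCP family transcription factor 4, 5 were higher in mnd1.a at W5.0. In Arabidopsis, TCP4 is a CINCINNATA-related protein that limits cell division in leaves. HORVU3Hr1G028240 (3H, 124687758 to 124690172) was at 113 ± 11.1 CPM in the W5.0 libraries of mnd1.a, and at 41.6 ± 10.3 CPM in those of Bowman (SD, n = 4 each), so that its log2 fold change was 1.44 ± 0.26 (SE, edgeR adjusted p = 0.000609). Its lowest mnd1.a library, at 104 CPM, was above its highest Bowman library, at 49.7 CPM. HORVU3Hr1G073830 was at 21.6 ± 4.04 against 7.73 ± 4.19 CPM (log2 fold change 1.46 ± 0.38, edgeR adjusted p = 0.00807). HORVU2Hr1G060120 had group means of 41.9 against 26.1 CPM (log2 fold change 0.68 ± 0.13, edgeR adjusted p = 0.000905). It shares with INT-C and HORVU5Hr1G000490, 3 genes in all, the InterPro entry of the R domain named after CYCLOIDEA and TEOSINTE BRANCHED 1. That entry gives a domain and was not used to assign HORVU2Hr1G060120 to a branch. HORVU1Hr1G077080 and HORVU5Hr1G103400 were higher by 0.64 ± 0.19 and 0.72 ± 0.24 on the log2 scale (edgeR adjusted p = 0.0194 and 0.0316), and both calls were lost when single W5.0 libraries were left out, with adjusted p up to 0.0703 and 0.102. The sixth gene of this annotation, HORVU5Hr1G008340, was at 9.29 ± 1.98 against 8.44 ± 1.37 CPM (edgeR adjusted p = 0.71).

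Among genes annotated only as TCP family members, 6 were higher in mnd1.a at W5.0. HORVU7Hr1G038130 (7H, 94003743 to 94005994) was at 30.9 ± 2.63 CPM in the mutant line and 10.8 ± 3.62 CPM in Bowman, with a log2 difference of 1.51 ± 0.30 (edgeR adjusted p = 0.0014). HORVU6Hr1G075650 (6H, 521125490 to 521129078) was at 25.2 ± 2.80 against 8.68 ± 5.26 CPM (1.52 ± 0.43, edgeR adjusted p = 0.0136). The remaining 4 of these calls were HORVU5Hr1G080210, HORVU2Hr1G090640, HORVU5Hr1G117990 and HORVU5Hr1G035980, with log2 fold changes of 1.04, 0.99, 0.92 and 0.46. HORVU6Hr1G059930 was at 2.97 ± 0.101 against 2.43 ± 0.304 CPM (edgeR adjusted p = 0.368), and HORVU6Hr1G093970, the gene inside HORVU6Hr1G093960, was at 0 CPM in some libraries of each group and at up to 2.14 CPM in mnd1.a W5.0 (edgeR adjusted p = 0.0775).

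Of the 2 genes annotated as PCF7, after a rice protein of the family, HORVU3Hr1G072670 (3H, 547159377 to 547161837) was higher in mnd1.a at W5.0, at 18.2 ± 1.18 against 10.3 ± 1.37 CPM (SD, n = 4 each; log2 fold change 0.83 ± 0.16, edgeR adjusted p = 0.000913). No TCP domain is given for either PCF7 gene, so both are listed by annotation wording alone. HORVU3Hr1G072670 was also the 1 gene of the 16 called at W3.5 (1.77% of all genes were called higher). At that stage mnd1.a had 18.3, 12.9 and 11.4 CPM and Bowman had 7.09, 6.22, 8.87 and 7.16 CPM. All mnd1.a libraries were above all Bowman libraries there, and the log2 fold change was 0.94 ± 0.18 (SE, edgeR adjusted p = 0.00465), or 0.82 with an adjusted p of 0.0585 without Bowman W3.5 replicates 2 and 4, and 0.118 when only the 2 groups were fitted. The other PCF7 gene, HORVU0Hr1G006890, was at 5.75 ± 0.637 against 3.78 ± 2.30 CPM at W5.0 (edgeR adjusted p = 0.235). HORVU2Hr1G003020, at 0 to 0.888 CPM, did not pass the low-count filter and was not tested.

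The earlier stages are the ones at which both lines carry the same library code. At W2.0, 0 of the 16 genes were called by edgeR (0.79% of all genes were called in either direction) and 0 by DESeq2 (325 of all genes). At an unadjusted edgeR p under 0.05 there was 1. No share over all genes is given at that threshold, so nothing is read from this count. The median log2 fold change at W2.0 was -0.01, with 7 positive. At W3.5, HORVU3Hr1G072670 alone was called (3.91% of all genes in either direction), 14 of 16 were positive and the median was 0.61. Among those not past the test at W3.5 were HORVU3Hr1G028240, at 88.5 ± 23.4 CPM in the mutant line and 46.1 ± 16.8 CPM in Bowman (SD, n = 3 and 4; log2 fold change 0.93 ± 0.27, edgeR adjusted p = 0.0615), and HORVU1Hr1G077080 (0.67 ± 0.21, edgeR adjusted p = 0.0788). The count at W3.5 was 3 with DESeq2 and 0 without Bowman replicates 2 and 4, and it was 3 without Bowman W2.0 replicate 3, Bowman W3.5 replicate 1 or 3, or mnd1.a W3.5 replicate 3, and 2 without Bowman W5.0 replicate 2.

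**Figure D2:**
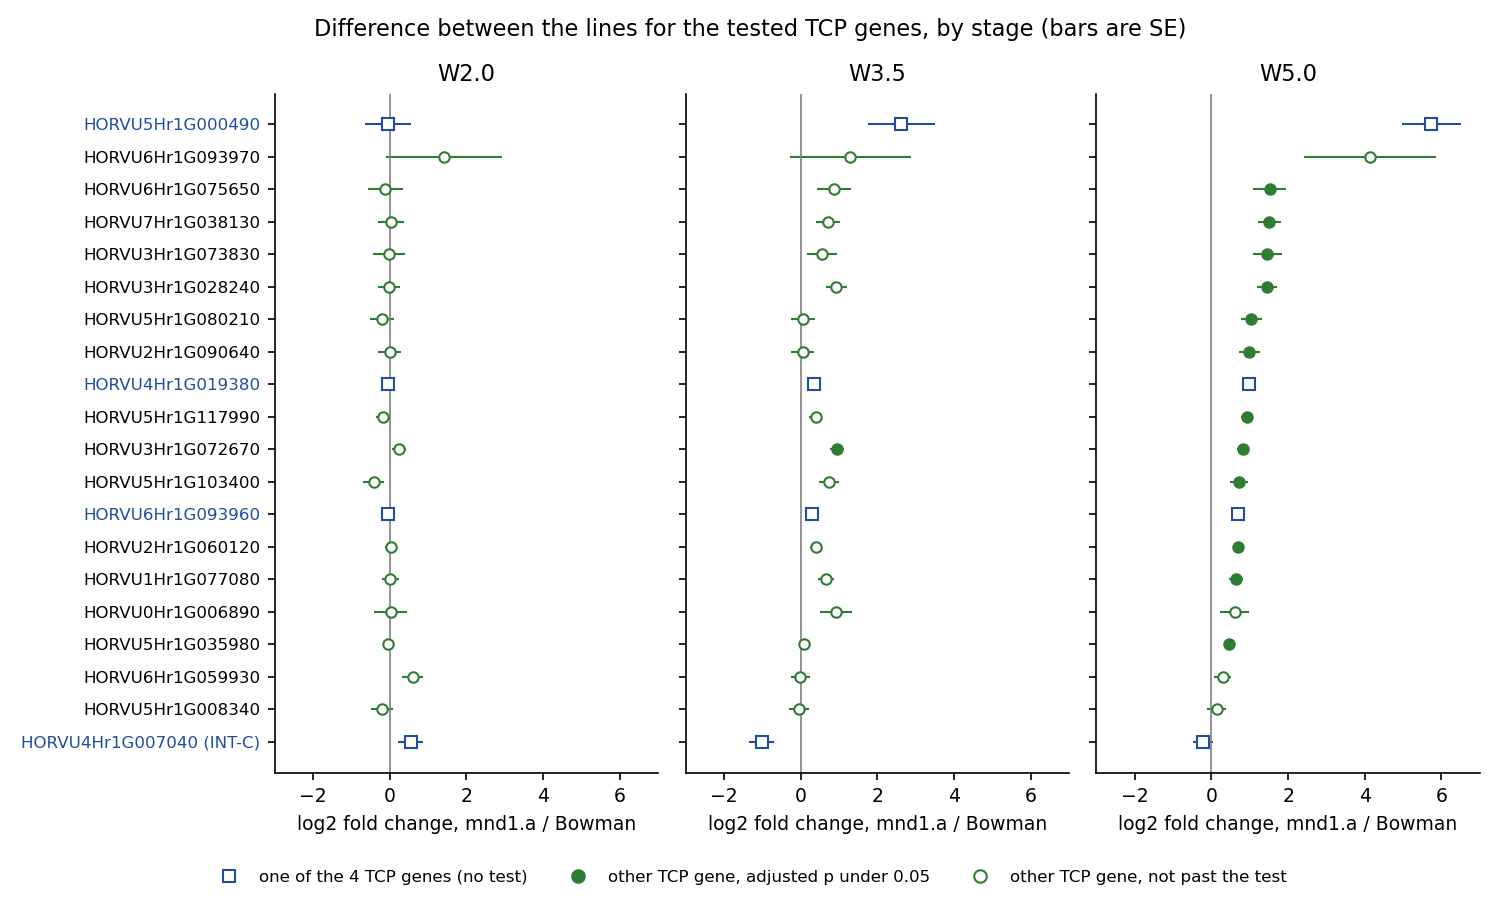
log2 fold change of mnd1.a over Bowman (x axes) with SE for the 20 tested TCP genes at each stage, ordered by the W5.0 value. Squares are the 4 selected genes. Filled circles are the other genes past an edgeR adjusted p of 0.05 (1 at W3.5, 12 at W5.0), and open circles those that were not. At W5.0 only INT-C lies left of 0, at -0.22. HORVU5Hr1G061270, which holds the TCP domain but lies outside the word list, is not shown.

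Along development, most of the tested genes fell in Bowman early on. From W2.0 to W3.5, 10 of the 16 were lower and 0 higher (15.2% of all genes were called lower), with a median log2 change of -0.94 (edgeR adjusted p under 0.05). HORVU3Hr1G072670 fell by 1.13 on the log2 scale (edgeR adjusted p = 0.000184), HORVU5Hr1G117990 fell by 1.04 (edgeR adjusted p = 0.000234) and HORVU3Hr1G028240 fell by 1.22 (edgeR adjusted p = 0.00325). This step also goes from code 1328 to 1327, and the code and the stage cannot be told apart in it. The count was 4 without Bowman W3.5 replicates 2 and 4, and 6 without Bowman W2.0 replicate 1 or 2. For 3 of the 4 selected genes the same step was negative as well, at -3.87 for HORVU5Hr1G000490, -0.82 for HORVU4Hr1G019380 and -0.64 for HORVU6Hr1G093960, against 0.28 for INT-C.

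The step from W3.5 to W5.0 in Bowman, within code 1327, gave 0 calls among the 16 (7.59% of all genes) and a median of -0.18. In mnd1.a, 0 of 16 were called from W2.0 to W3.5 (3.78% of all genes; median -0.29) and 0 from W3.5 to W5.0 (10.1% of all genes; median 0.34). DESeq2 called 2, 1 and 0 of the 16 for these 3 steps (2530 and 1308 of all genes for the first and the second). At an unadjusted p under 0.05, the edgeR counts were 5, 3 and 3 of 16. No share over all genes is given at that threshold, so nothing is read from the unadjusted counts. Both mnd1.a steps cross library codes, from 1328 to 1327 and then from 1327 to 1328. The code and the stage cannot be told apart in either step, also for the 4 selected genes.

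Whether the line difference changed with stage was tested by the interaction of line and stage. The lines differ in library code at W5.0. In changes that end at that stage, the code and a change of the line difference cannot be told apart. From W2.0 to W5.0, 5 of the 16 genes had a line difference that rose and 0 one that fell (5.09% of all genes rose), with a median change of 1.04. These were HORVU7Hr1G038130 (1.49 ± 0.45, edgeR adjusted p = 0.0431), HORVU3Hr1G028240 (1.47 ± 0.38, adjusted p = 0.0229), HORVU5Hr1G117990 (1.09 ± 0.24, adjusted p = 0.0079), HORVU2Hr1G060120 (0.65 ± 0.20, adjusted p = 0.043) and HORVU5Hr1G035980 (0.50 ± 0.14, adjusted p = 0.029). Without single libraries the count ran from 1 to 8, and it was 9 when only the 4 groups involved were fitted. It was 1 without Bowman W2.0 replicate 1 or 2 or mnd1.a W2.0 replicate 2 or 3, it was 2 without Bowman W5.0 replicate 2, mnd1.a W2.0 replicate 1 or mnd1.a W5.0 replicate 2 or 3, it was 3 without Bowman W5.0 replicate 4 or mnd1.a W5.0 replicate 4, and it was 8 without Bowman W2.0 replicate 3. From W2.0 to W3.5 and from W3.5 to W5.0, 0 of 16 were called (0.189% and 1.02% of all genes). DESeq2 called 0 and 0 of them (350 and 483 of all genes). At an unadjusted edgeR p under 0.05 there were 5 and 4 of 16. No share over all genes is given at that threshold, so nothing is read from the unadjusted counts.

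The levels of the 16 genes were also summarised in each library, as the median over genes of log2 CPM centred on each gene's mean. Bowman W5.0 lay at -0.59, -0.68, -0.39 and -0.54 and mnd1.a W5.0 at 0.20, 0.40, 0.38 and 0.49. At W3.5 Bowman lay at -0.40, -0.62, -0.15 and -0.89 and mnd1.a at 0.24, 0.15 and -0.16, so the lines touched. At W2.0 Bowman lay at 0.57, 0.55 and 0.08 and mnd1.a at 0.41, 0.40 and 0.44. The Bowman libraries of the later stages were the low ones, and mnd1.a at W5.0 was level with W2.0. Every library with code 1328 was above 0, and of the libraries with code 1327, 2 of 11 were, both from mnd1.a W3.5.

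Summed levels of marker lists for other tissue are given beside these values. MADS-box genes, many of which specify floral organs, summed to 926 to 959 CPM in mnd1.a W5.0 against 1070 to 1390 CPM in Bowman W5.0, to 739 to 796 against 923 to 1130 CPM at W3.5, and to 651 to 773 against 569 to 735 CPM at W2.0. Of 34 tested, 0 were called higher and 12 lower in mnd1.a at W3.5 (2.13% of all genes were called lower) and 0 higher and 7 lower at W5.0 (15.2% of all genes were called lower), with MADS-box transcription factor 14 (HORVU5Hr1G095630) at 197 ± 12.0 against 342 ± 80.5 CPM at W5.0 (SD, n = 4 each; edgeR adjusted p = 0.00144). Green leaf genes (chlorophyll a-b binding proteins and the small subunit of Rubisco) summed to 176 to 329 CPM in Bowman W2.0 against 606 to 1070 CPM in mnd1.a W2.0, where 18 of 35 were called higher (0.497% of all genes), while the ranges overlapped at W3.5 (990 to 1430 against 890 to 1360 CPM) and W5.0 (1010 to 1530 against 843 to 1350 CPM). Knotted-like homeobox genes of the meristem summed to 146 to 205 CPM in Bowman W2.0 against 220 to 233 CPM in mnd1.a W2.0, without overlap, to 232 to 362 against 220 to 300 CPM at W3.5, and to 251 to 335 against 258 to 286 CPM at W5.0. At W5.0, 2 of 8 tested knotted-like genes were called higher in mnd1.a and 0 lower. Of 35 green leaf genes, 2 were called higher and 6 lower there (15.0% of all genes were called higher and 15.2% lower). In Bowman each W3.5 library was above each W2.0 library for the MADS-box, the green leaf and the knotted-like sum alike. This was over the step in which 10 of the 16 TCP genes fell, which also goes from code 1328 to 1327. In each of the 6 groups at most 2 of the 37 green leaf genes, 3 of the 40 MADS-box genes and 0 of the 9 knotted-like genes were at 0 in all libraries. The part of tissue make-up in the TCP differences was not tested.

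**Figure D3:**
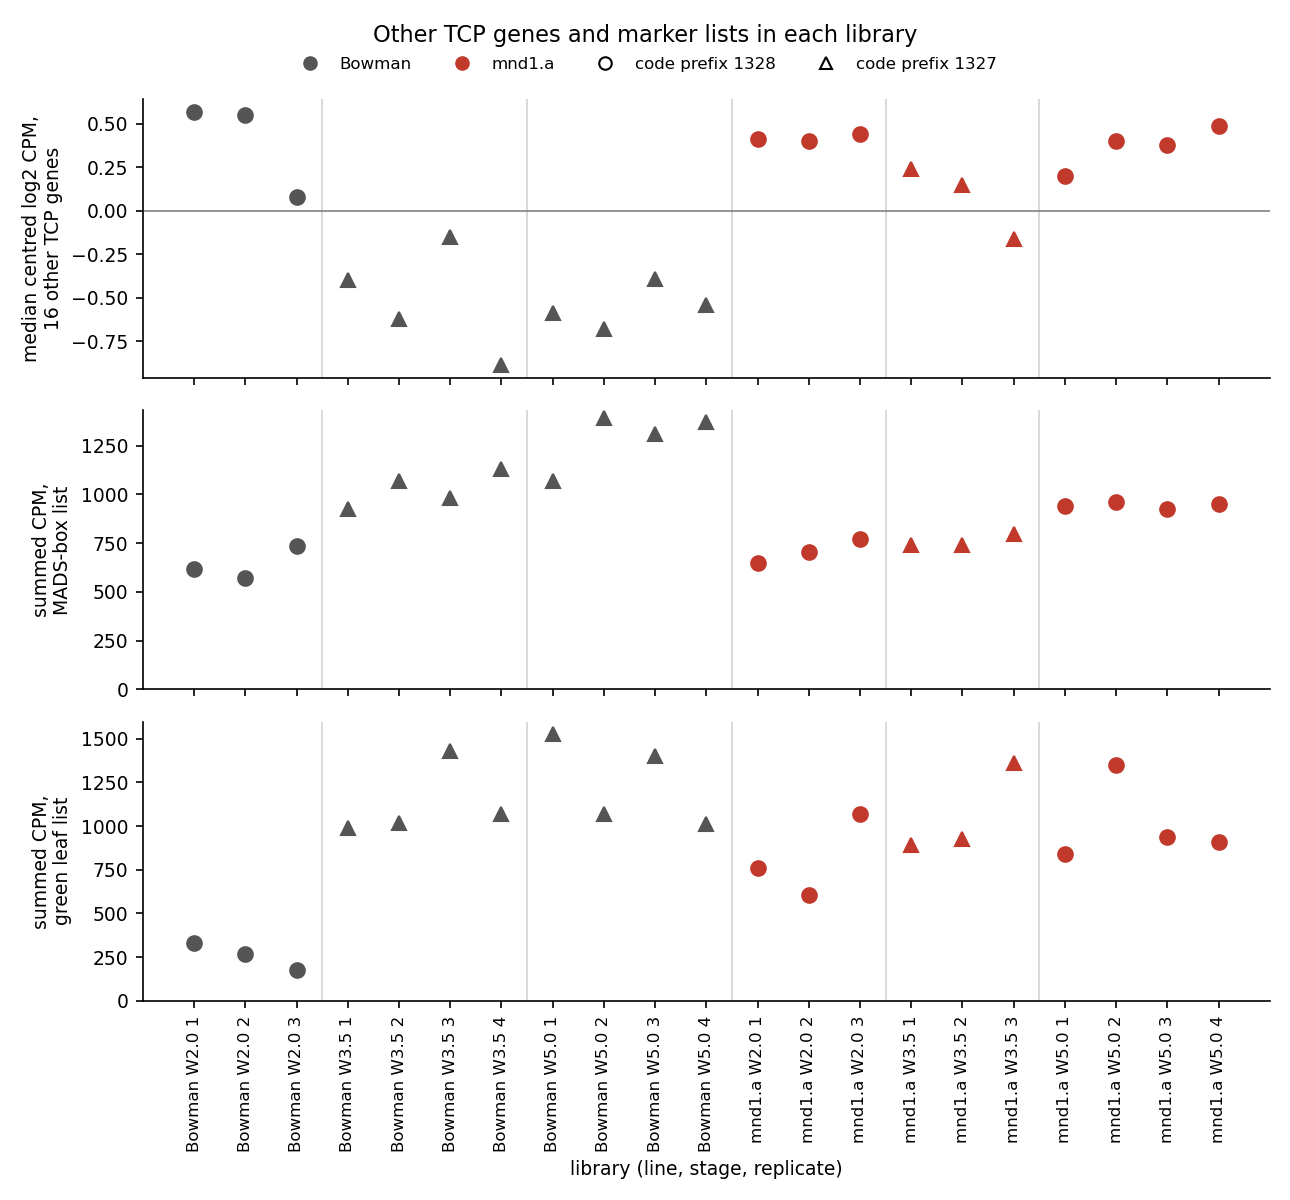
Each of the 21 libraries (x axis) with the median centred log2 CPM of the 16 other tested TCP genes (top), the summed CPM of 40 MADS-box genes (middle) and of 37 green leaf genes (bottom); colour gives the line and the marker the start of the library code. In the top panel the Bowman W3.5 and W5.0 libraries lie between -0.89 and -0.15 and the mnd1.a W5.0 libraries between 0.20 and 0.49.

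The likeness of the 4 genes to the rest of the family was then compared across libraries. Over the 21 libraries the log2 CPM of INT-C had a median Pearson r of -0.166 with the 16 other TCP genes, with a highest value of 0.168 and 0 of 16 over 0.5. The median was 0.808 for HORVU4Hr1G019380 (13 of 16 over 0.5), 0.748 for HORVU5Hr1G000490 (13 of 16) and 0.673 for HORVU6Hr1G093960 (12 of 16). These are descriptions over libraries that share their 6 group means, so a common course over stages and lines raises r, and the values of HORVU5Hr1G000490 rest on few counts.

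By the same measure over 20745 genes, those most like INT-C were growth-regulating factor 10 (HORVU6Hr1G065740, r = 0.894), of a transcription factor family known for promoting growth of leaves and flowers, a gene annotated as polymerase/histidinol phosphatase-like (HORVU6Hr1G075000, r = 0.871) and an AT-hook nuclear protein (HORVU7Hr1G017700, r = 0.84). HORVU5Hr1G000490 was closest to a Brefeldin A-inhibited guanine nucleotide-exchange protein (HORVU4Hr1G063180, r = 0.922), which acts in vesicle traffic, to importin beta-1 (HORVU5Hr1G021580, r = 0.92), a nuclear import carrier, and to HORVU3Hr1G032730 (r = 0.92), which the table does not annotate. HORVU4Hr1G019380 was closest to a TCP gene, HORVU5Hr1G117990 (r = 0.956), followed by the translation initiation factor eIF3 subunit F (HORVU6Hr1G014610, r = 0.955) and an oligosaccharyltransferase subunit (HORVU3Hr1G092660, r = 0.953). For HORVU6Hr1G093960 they were an alpha-glucosidase (HORVU7Hr1G106540, r = 0.938), an ATP-binding permease (HORVU7Hr1G063020, r = 0.924) and a cytochrome b (HORVU0Hr1G034150, r = 0.908).

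**Figure D4:**
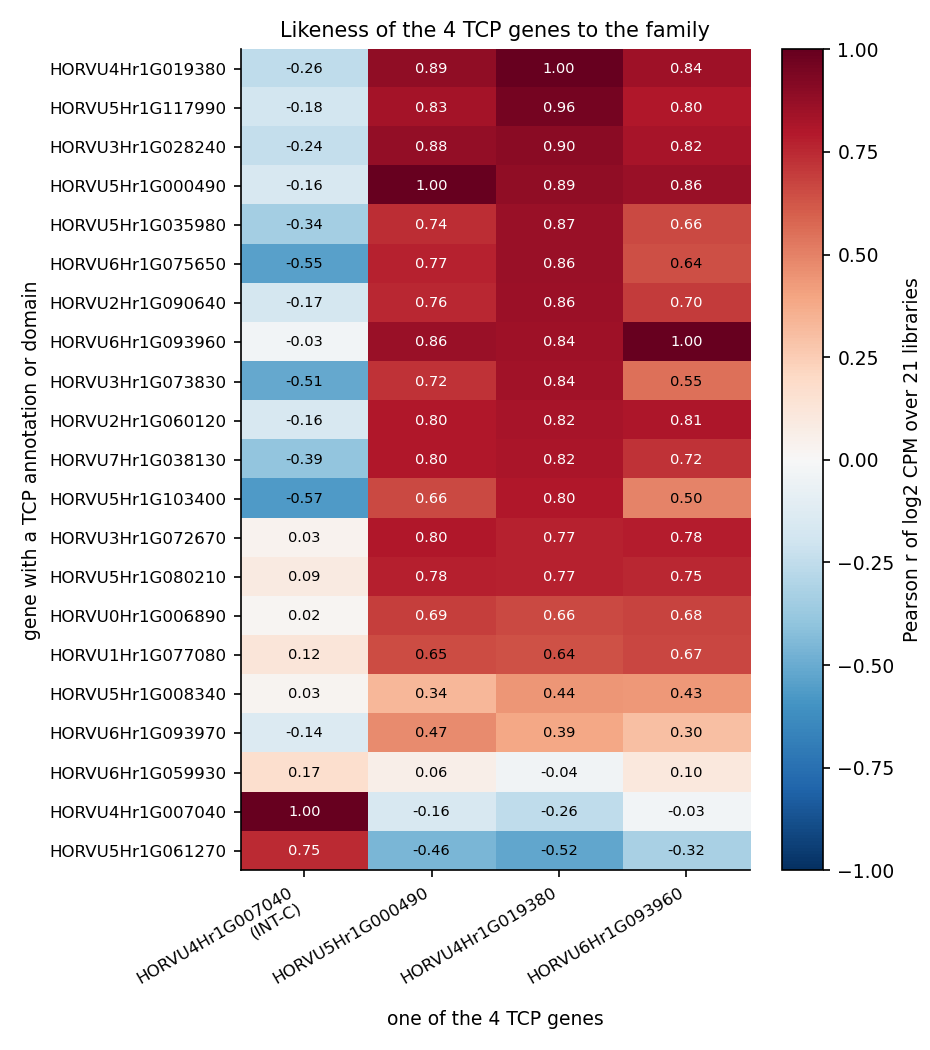
Pearson r of log2 CPM over 21 libraries between each of the 4 TCP genes (columns) and the tested genes with a TCP annotation or domain (rows), from -1 (blue) to 1 (red). INT-C has r of 0.168 or less with each of the 16 other listed genes, while HORVU4Hr1G019380 reaches 0.956 with HORVU5Hr1G117990; the bottom row is the Retarded palea 1 gene, HORVU5Hr1G061270.

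One further gene holds the TCP domain in the table but is annotated as Retarded palea 1 and so fell outside the word list. In rice, RETARDED PALEA1 is a CYCLOIDEA-like gene needed for development of the palea, the inner bract of the floret. HORVU5Hr1G061270 was chosen after its values were seen, so its adjusted p-values are given as descriptions and are not read as tests. It was at 3.15, 3.0 and 2.46 CPM in Bowman and 1.49, 1.79 and 1.46 CPM in mnd1.a at W2.0, at 1.73, 3.07, 2.58 and 5.73 against 1.28, 0.954 and 1.10 CPM at W3.5, and at 3.41, 7.26, 4.56 and 5.65 against 3.63, 2.93, 3.33 and 2.46 CPM at W5.0. The mnd1.a libraries were the lower ones without overlap at W2.0 and W3.5, while the ranges overlapped at W5.0. Its log2 fold change was -0.86 ± 0.35 at W2.0 (edgeR adjusted p = 0.421), -1.53 ± 0.34 at W3.5 (edgeR adjusted p = 0.016) and -0.75 ± 0.28 at W5.0 (edgeR adjusted p = 0.05, just under the threshold). The W3.5 call was lost with limma-voom (adjusted p = 0.0997), with only the groups compared (0.218), without Bowman replicates 2 and 4 (-0.96, adjusted p = 0.115) and without mnd1.a replicate 1 or 2 (0.0536 and 0.0906), and the W5.0 call under most alternatives (0.0517 with DESeq2). Its r with INT-C over the 21 libraries was 0.748 and with HORVU4Hr1G019380 was -0.52.

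Genes that act with TCP factors in other plants were read from 2 further lists. Strigolactones are hormones that hold back side shoots, and MAX2 is the F-box protein through which they act. Of 7 tested strigolactone and dormancy genes, 0 were higher and 2 lower in mnd1.a at W5.0 (15.2% of all genes were called lower), with a median log2 fold change of -0.34. A MAX2 gene, HORVU7Hr1G023610, was at 25.6 ± 1.22 against 37.3 ± 8.23 CPM (SD, n = 4 each; log2 fold change -0.54 ± 0.17, edgeR adjusted p = 0.0207), and a dormancy/auxin-associated gene, HORVU7Hr1G019510, was at 0.197 ± 0.0746 against 1.00 ± 1.07 CPM (-2.31 ± 0.82, edgeR adjusted p = 0.0407). The other MAX2 gene, HORVU7Hr1G023710, was not past the threshold (edgeR adjusted p = 0.187). Lipoxygenases open the path to jasmonate, and in Arabidopsis LOX2 is a target of TCP4. Of 14 tested, 3 were higher and 2 lower at W5.0, with a median of 0.07, where 15.0% of all genes were called higher and 15.2% lower, so the list's counts were near the background. Among these, a lipoxygenase 2 gene, HORVU5Hr1G001180, was at 24.6 ± 9.34 against 2.06 ± 2.06 CPM (edgeR adjusted p = 0.00414), and a lipoxygenase 1 gene, HORVU5Hr1G093770, was at 56.5 ± 11.2 against 172 ± 86.7 CPM (edgeR adjusted p = 0.00343). The other lipoxygenase 2 gene among the 4 with the smallest adjusted p, HORVU6Hr1G000510, had counts in mnd1.a W5.0 (0.466 ± 0.358 CPM) and 0 in each Bowman W5.0 library (edgeR adjusted p = 0.00395). The last of the 4, HORVU4Hr1G005920, is annotated as lipoxygenase 1 and was higher in mnd1.a. It was at 249 ± 18.1 against 188 ± 28.4 CPM (log2 fold change 0.40 ± 0.12, edgeR adjusted p = 0.0142).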

How the data were processed

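RNA-seq values of 21 libraries in 6 groups were used. The estimated counts were deposited per transcript, 1 for each gene, headed as raw counts per the file headers, and 94.8% were not whole. Salmon, limma, GATK and BWA 0.7.15 are named in the submitters' processing notes, without role or order. The aligner settings, genome build and use of strand are not given in the sources used here. The authors' deposited log2 fold changes and FDR values (adjusted p-values) were used only to match stages: count columns headed with a stage other than W3.5 gave fold changes whose r over genes was 0.912 with the authors' W3.5 values, against 0.24 and 0.463 for the other stages, and were taken as W3.5. Of 42 per-sample columns, 21 of log2 values were not used. Columns name line and stage but no library code, so replicate numbers only name libraries.

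Estimated counts were rounded, filtered with filterByExpr (minimum count 10, minimum total 15), which kept 21132 genes and removed 3186, and scaled by TMM (factors 0.902 to 1.08). One mean for each of 6 groups was fitted with the robust quasi-likelihood model of edgeR 4.0.16 in R 4.3.3, and 10 comparisons were adjusted by Benjamini-Hochberg over all genes, with a threshold of 0.05. Medians of log2 fold changes over all tested genes were within 0.011 of 0. Standard errors were derived from the F statistic, and log2 CPM used a prior count of 0.25. The procedure was tested on simulated data. Alternatives were RLE scaling, no filter, DESeq2 1.42.0, limma-voom (limma 3.58.1), only the groups compared, leaving out each library, and leaving out Bowman W3.5 replicates 2 and 4.

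The 4 genes, the lists and the tests were chosen with earlier results of these data known. Lists were word patterns on annotations; the TCP pattern received an exclusion after annotations were read, because a cleavage complex protein matched. Lists for boundary NAC and row-type genes matched no annotation. Named are each of the 4 genes, each TCP gene, at most 4 genes of each other list with the smallest adjusted p at W5.0, and for each of the 4 genes the 3 with the highest Pearson r over 21 libraries, transcripts with identical counts left out. The ratio of summed counts has an exact 95% interval.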

Additional observations from a re-analysis of the deposited data

Results flagged for a closer look

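Dixon's criterion at 95% (critical value 0.829) marked a single library in 4 of 66 groups of 4 checked, where chance flags about 1 in 20. In 3 of the 4, the other libraries were all at 0, which by construction gives the highest ratio possible whatever the level of the remaining one, so those 3 marks carry no weight. HORVU5Hr1G000490 was at 0.0443 CPM in Bowman W5.0 replicate 1, a single count under the 0.133 CPM to which 3 counts correspond there, and at 0 in the other 3. HORVU6Hr1G093970 was at 0.732 CPM in Bowman W3.5 replicate 3 and at 0.257 CPM in Bowman W5.0 replicate 2, and at 0 in the other libraries of both groups. HORVU5Hr1G008340 was at 11.5 CPM in Bowman W3.5 replicate 3, the deepest library of the set.

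The difference between the lines changed from W2.0 to W5.0 for 5 of the 16 other tested TCP genes, by the edgeR interaction test over all genes (adjusted p under 0.05). The change on the log2 scale was 1.47 for HORVU3Hr1G028240, 1.49 for HORVU7Hr1G038130, 0.65 for HORVU2Hr1G060120, 1.09 for HORVU5Hr1G117990 and 0.50 for HORVU5Hr1G035980. Of these, the call for HORVU5Hr1G117990 held in all 21 fits that left out 1 library. At W5.0 the library code and the line cannot be told apart.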

How the results depend on the processing

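No paired analysis was possible because the count columns carry no number that links a library of one group to a library of another. Of the 16 TCP genes, 12 at W5.0 became 10 to 12 without 1 library. At W3.5, where 1 was called, DESeq2 called 3, and 0 were called with only the groups compared and 0 without Bowman W3.5 replicates 2 and 4; without 1 library the count was 1 to 3. From W2.0 to W3.5 in Bowman (10), it was 5 with only the groups compared, 4 without the Bowman pair and 6 to 11 without 1 library. From W3.5 to W5.0 in Bowman (0), it was 2 with DESeq2, 4 without the Bowman pair and 0 to 3 without 1 library (3 without Bowman W3.5 replicate 4 or Bowman W5.0 replicate 1; 1 without Bowman W2.0 replicate 3, Bowman W3.5 replicate 3 or mnd1.a W3.5 replicate 3). In mnd1.a from W2.0 to W3.5 (0), DESeq2, limma-voom, only the groups compared and leaving out the Bowman pair gave 1 each, and leaving out 1 library 0 to 1 (1 without Bowman W3.5 replicate 1). From W3.5 to W5.0 in mnd1.a (0), only the groups compared gave 2, leaving out the Bowman pair 1, and leaving out 1 library 0 to 1 (1 without Bowman W3.5 replicate 1 or 4). The change of the line difference from W2.0 to W5.0 (5) gave 9 with only the groups compared and 1 to 8 without 1 library, and that from W2.0 to W3.5 (0) gave 0 to 1 (1 without mnd1.a W3.5 replicate 3). The log2 fold change of INT-C at W3.5 was -0.47 without the Bowman pair and -1.24 to -0.70 without 1 library, and that of HORVU5Hr1G000490 at W5.0 was 5.43 to 7.09. No gene past the test changed direction in any alternative. At W2.0, where they were near 0, the values of HORVU5Hr1G000490, HORVU4Hr1G019380 and HORVU6Hr1G093960 changed sign when single W2.0 libraries were left out, reaching 0.37, 0.07 and 0.08.

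Over all genes, DESeq2 called 325 genes in place of 167 at W2.0, 1487 in place of 826 at W3.5, 2530 in place of 1604 from W3.5 to W5.0 in Bowman and 1308 in place of 799 from W2.0 to W3.5 in mnd1.a. For the changes of the line difference it called 350 in place of 40 (W2.0 to W3.5; limma-voom 23) and 483 in place of 215 (W3.5 to W5.0). With only the groups compared the counts were 94 at W3.5, 2370 in place of 6210 from W2.0 to W3.5 and 0 from W3.5 to W5.0 in Bowman, 1535 and 3689 (in place of 2140) for the mnd1.a steps, and 0 and 3439 (in place of 2172) for the changes from W2.0 to W3.5 and to W5.0. Without the Bowman pair they were 344 at W3.5, 3641 and 4018 for the Bowman steps, and 25 and 430 for the first and second changes. The cause was not tested. Depth limits HORVU5Hr1G000490, HORVU6Hr1G093970 and HORVU2Hr1G003020, which had fewer than 3 estimated counts in 9, 11 and 10 of 21 libraries.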
